A study of Mus musculus with 35 samples.

Results

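Transcripts of 10 genes known from disease-associated microglia (DAM), Spp1, Lpl, Clec7a, Gpnmb, Lgals3, Itgax, Cst7, Ch25h, Fabp5 and Csf1, were followed across the midbrain, striatum and PFC (prefrontal cortex) of adult mice. They were chosen by symbol, and all 10 were present among the 21236 genes of the counts table after the low-expression filter. Because the choice rested on their levels by region in these same samples, the differences and the order between regions are given as a description without a test, while sex and the variation between mice within a region were not used to choose them. The mice carried the Tmem119-2A-CreERT2 allele together with the Ai14(RCL-tdTomato)-D reporter and had received Tamoxifen, and tdTomato-positive cells were sorted from each region of 6 males and 6 females. Every group, male or female and in each region, carried the same Cre driver, reporter and treatment, so the sorted cells are those in which the Tmem119 promoter drove CreERT2, and there was no group without Tamoxifen. Each combination of region and sex had 6 samples, but mouse 3 had none from the PFC, which left 5 for males there and 35 in all from 12 mice.

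Microglia are the resident macrophages of the brain. Around amyloid plaques, in demyelination and in ageing, some of them lower homeostatic transcripts and raise a set of lipid, lysosomal and adhesion genes, a change that in part depends on the receptor TREM2 and its partner TYROBP, and this state is called DAM. Several of the same genes are also expressed by microglia of the developing white matter, by border macrophages and by dendritic cells.

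The 250 bases before a RefSeq transcription start (GRCm38.p6) were available for 8 of the 10 genes, and those of 3 genes with the full order of regions in most mice (Spp1, Clec7a, Itgax), of Lgals3, which had it in every mouse, and of Csf1, which had it in 1 mouse, are shown 5′ to 3′ so that the start regions can be compared. Capitals mark matches on either strand to GAGGAA, the core of the site of PU.1 (a macrophage lineage factor), to TGANTCA (AP-1) or to TATAAA.
Spp1 (chr5:104434861-104435110, plus strand): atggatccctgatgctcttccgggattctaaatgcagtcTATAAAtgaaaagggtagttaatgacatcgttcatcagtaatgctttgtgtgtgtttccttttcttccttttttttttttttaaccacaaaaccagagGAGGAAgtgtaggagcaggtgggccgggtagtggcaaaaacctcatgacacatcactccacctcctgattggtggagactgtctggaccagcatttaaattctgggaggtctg
Clec7a (chr6:129472780-129473029, minus strand): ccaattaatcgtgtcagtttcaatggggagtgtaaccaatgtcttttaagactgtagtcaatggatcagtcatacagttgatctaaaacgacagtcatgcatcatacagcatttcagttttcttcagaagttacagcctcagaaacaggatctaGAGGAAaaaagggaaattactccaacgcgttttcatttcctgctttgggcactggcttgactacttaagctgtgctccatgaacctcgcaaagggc
Itgax (chr7:128129300-128129549, plus strand): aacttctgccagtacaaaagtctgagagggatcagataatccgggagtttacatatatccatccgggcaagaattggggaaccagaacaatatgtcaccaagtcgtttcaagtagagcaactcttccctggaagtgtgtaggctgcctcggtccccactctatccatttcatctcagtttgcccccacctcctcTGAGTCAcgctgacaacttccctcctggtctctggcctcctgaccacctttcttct
Lgals3 (chr14:47373610-47373859, plus strand): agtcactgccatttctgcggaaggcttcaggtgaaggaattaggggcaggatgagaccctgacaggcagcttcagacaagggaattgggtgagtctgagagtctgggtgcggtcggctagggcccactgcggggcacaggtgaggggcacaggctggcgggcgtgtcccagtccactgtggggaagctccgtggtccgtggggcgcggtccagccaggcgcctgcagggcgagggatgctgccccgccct
Csf1 (chr3:107760470-107760719, minus strand): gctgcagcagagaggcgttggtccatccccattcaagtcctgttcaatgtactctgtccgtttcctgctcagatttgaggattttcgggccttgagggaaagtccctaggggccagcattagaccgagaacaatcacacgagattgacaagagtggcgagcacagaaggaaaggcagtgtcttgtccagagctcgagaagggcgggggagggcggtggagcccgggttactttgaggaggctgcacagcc
Spp1 and Clec7a had 2 starts each, of which the first is shown, and the second start of Spp1 held none of the letters searched. GAGGAA was found before Spp1 and Clec7a, at 3 of the 10 starts of the 8 genes, and in 23.3% of all 32851 promoters of this length, counted per start. TGANTCA was found before Itgax (6.75% of all promoters) and TATAAA before Spp1 and Ch25h (12.4%). CACGTG and CATGTG, the letters bound by MITF and TFE3, were found before none of the 8 genes (6.02% and 12.3% of all promoters). Lgals3 and Csf1 held none of the letters searched, so that no motif was found before all of the genes shown. These matches describe the sequence and are not sites of measured binding.

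Total counts ran from 37680501 to 54131421 per sample. Values are CPM, counts relative to library size scaled with TMM factors, and fewer than 3 counts were treated as indistinguishable from 0 (the floor). The summed level of 14 homeostatic microglial transcripts, P2ry12 and Csf1r among them, lay between 54928 and 68807 CPM in every sample. The sums of other cell types were far lower: 12 border macrophage markers, 11 of them in the table, gave 79.4 to 233 CPM, 8 of 12 monocyte and neutrophil markers gave 1.19 to 44.5 CPM, and 9 of 12 markers of dendritic cells and lymphocytes gave 3.93 to 23.5 CPM. Higher than these were 12 oligodendrocyte markers, at 232 to 899 CPM, and 10 astrocyte markers, at 210 to 501 CPM. Most of the border macrophage sum came from a single marker, Stab1, which averaged 108 CPM, while the next marker averaged 4.50 CPM. A pair of samples stood apart for the 10 genes. The midbrain sample of mouse 6 was the highest of 12 for Clec7a, Lgals3, Itgax and Ch25h, and it also held the highest sums of MHC class II transcripts (4278 CPM, next 2019) and border macrophage markers (233 CPM, next 128). Of these markers Ms4a7, named after its values were seen, had 97.9 CPM there, against a mean of 2.00 CPM in the other midbrain samples. The striatum sample of mouse 9 was the highest of 12 for 7 of the 10 genes and also had the highest oligodendrocyte sum of its region (899 CPM, next 665). Their part in the results was not tested, and values without them are given below. In these bulk samples, fewer expressing cells and less RNA per cell cannot be told apart.

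The 10 genes did not behave as a block. For Spp1, Lpl, Clec7a, Lgals3 and Itgax the level fell from midbrain to striatum to PFC in 9 to 11 of the 11 mice with all regions, Gpnmb and Ch25h were highest in the midbrain in 9 of 11 mice each but low throughout, and Cst7, Fabp5 and Csf1 had no comparable order.

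**Figure D1:**
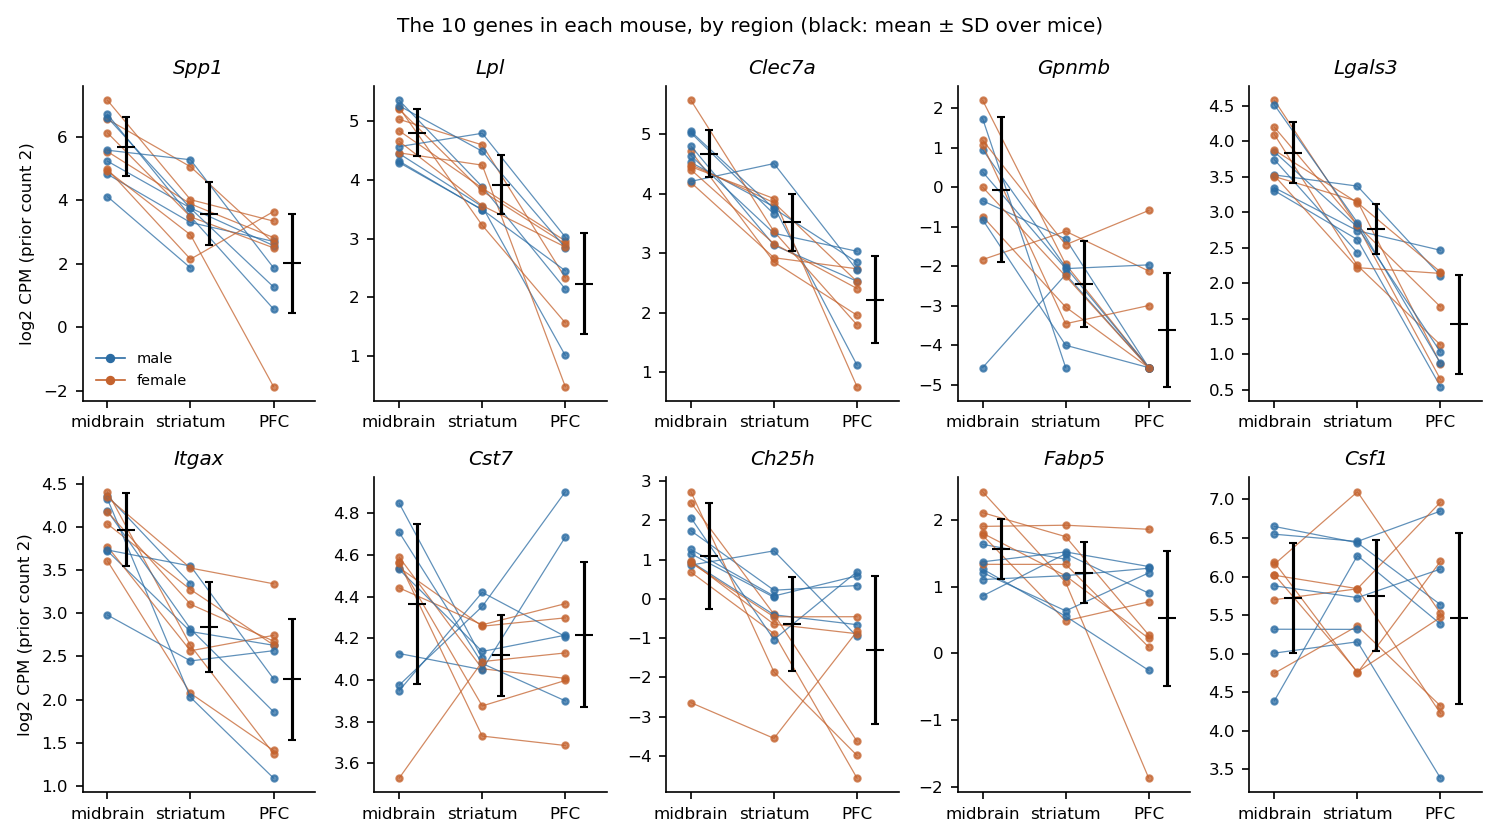
Log2 CPM (prior count 2) of each gene in midbrain, striatum and PFC, with a line for each mouse (blue, male; orange, female) and the mean ± SD over mice in black; each panel has its own axis. Lines slope down from left to right for Spp1, Lpl, Clec7a, Lgals3 and Itgax, and cross for Cst7 and Csf1.

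Among the secreted factors, Spp1 (ENSMUSG00000029304, chromosome 5, 104435118 to 104441050, GRCm38) encodes osteopontin, an integrin and CD44 ligand. It ran from 17.3 through a median of 47.1 to 142 CPM in the midbrain, from 3.62 through 12.3 to 38.8 CPM in the striatum and from 0.232 through 5.92 to 12.5 CPM in the PFC. Midbrain and PFC did not overlap, whereas the striatum overlapped with both. Means were 62.3 ± 38.9 CPM (SD, n = 12), 14.8 ± 10.7 (n = 12) and 5.61 ± 3.63 (n = 11), so the mean in the midbrain was 11.1-fold that of the PFC and 4.20-fold that of the striatum. Within mice the log2 difference between midbrain and PFC was 3.83 ± 1.68 (SD, n = 11 mice), and Spp1 was higher in the midbrain than the striatum in 12 of 12 mice. Only mouse 12, with 4.39 CPM in the striatum and 12.5 in the PFC, broke the order. With the 2 samples named above left out, the means differed 10.6-fold and 4.70-fold.

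Csf1 (ENSMUSG00000014599, chromosome 3, 107741048 to 107760469), the growth factor of macrophages and microglia, was expressed at means of 58.2 ± 25.1, 60.6 ± 32.1 and 55.7 ± 37.4 CPM (SD, n = 12, 12 and 11) in midbrain, striatum and PFC. Its ranges overlapped almost entirely, from 20.9 to 100.4, 26.9 to 137 and 10.4 to 125 CPM, and only mouse 7 had the order midbrain, striatum, PFC. Csf1 varied more between mice than between regions. In the PFC it was 27.03 ± 15.1 CPM (SD, n = 5) in mice 1 to 6 and 79.6 ± 33.2 (n = 6) in mice 7 to 12, and these ranges (10.4 to 44.3 and 45.9 to 125 CPM) did not overlap. In the midbrain the same groups of mice had 39.4 ± 16.5 and 77.0 ± 16.4 CPM, and in the striatum 46.4 ± 18.1 and 74.8 ± 38.1 CPM (n = 6 each), with overlap in both. No label calls these groups of mice a batch, and the difference was not tested. Lpl in the PFC also differed between them (3.34 ± 1.81 and 7.01 ± 1.34 CPM), while Spp1 in the PFC had 5.82 ± 3.55 and 5.44 ± 4.03 CPM.

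Among the lipid genes, Lpl (ENSMUSG00000015568, chromosome 8, 68880491 to 68907448) encodes lipoprotein lipase, which releases fatty acids from triglycerides. It ran from 19.5 through a median of 26.8 to 40.8 CPM in the midbrain, from 9.31 through 14.2 to 27.6 CPM in the striatum and from 1.36 through 5.44 to 8.10 CPM in the PFC. The PFC stood below both other regions without overlap, and midbrain and striatum overlapped. Means were 28.8 ± 7.88, 15.9 ± 5.92 and 5.34 ± 2.42 CPM, a 5.40-fold difference between midbrain and PFC and a 2.98-fold difference between striatum and PFC. Of the 10 genes, only Lpl had no overlap between striatum and PFC, with more in the striatum in 11 of 11 mice, and only mouse 9 had more in the striatum (27.6 CPM) than in the midbrain (23.6 CPM).

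Ch25h (ENSMUSG00000050370, chromosome 19, 34473778 to 34475164), which makes 25-hydroxycholesterol, was low. It ran from 0.118 through 2.04 to 6.59 CPM in the midbrain, from 0.043 through 0.701 to 2.29 CPM in the striatum and from 0 through 0.523 to 1.58 CPM in the PFC, where 3 of 11 samples were under the floor. It was higher in the midbrain than the PFC in 10 of 11 mice, but striatum and PFC had no order (6 of 11 mice higher in the striatum). Fabp5 (ENSMUSG00000027533, chromosome 3, 10012548 to 10016607), an intracellular carrier of fatty acids, had means of 3.05 ± 1.02 (SD, n = 12), 2.37 ± 0.739 (n = 12) and 1.68 ± 0.942 CPM (n = 11) in midbrain, striatum and PFC. Its ranges overlapped, it was higher in the midbrain than the PFC in 9 of 11 mice, and 5 of 11 mice had the full order. Ch25h shares 159 bases with the lncRNA Gm26902 on the opposite strand (0.241 CPM on average against 1.42 for Ch25h), and Fabp5 has 3 near-identical pseudogene copies (at most 0.128 CPM against 2.39). Spp1 shares 181 identical bases with Gm42793, which was not in the table. How reads between these genes were assigned is not stated, so Ch25h, Fabp5 and Spp1 carry that uncertainty.

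Among the surface proteins, Clec7a (ENSMUSG00000079293, chromosome 6, 129461591 to 129472779), the beta-glucan receptor Dectin-1, ran from 18.1 through a median of 23.9 to 47.3 CPM in the midbrain, from 7.17 through 11.4 to 22.6 CPM in the striatum and from 1.65 through 5.70 to 8.12 CPM in the PFC. The midbrain stood above the PFC without overlap, and the striatum overlapped slightly with each. Means were 26.3 ± 8.15, 12.02 ± 4.30 and 5.10 ± 2.09 CPM, a 5.17-fold difference between midbrain and PFC and a 2.19-fold difference between midbrain and striatum. Within mice 1 to 6 the log2 difference between midbrain and PFC averaged 3.05 and within mice 7 to 12 it averaged 1.89, with the midbrain higher in every mouse. Mouse 9 again was the exception to the order, with 22.6 CPM in the striatum and 18.4 in the midbrain.

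Itgax (ENSMUSG00000030789, chromosome 7, 128129547 to 128150657), the integrin chain CD11c, had 7.85 to 21.2 CPM in the midbrain, 4.03 to 11.7 in the striatum and 2.08 to 10.1 in the PFC, with medians of 17.2, 6.94 and 5.88. All of these ranges overlapped, yet within mice the midbrain was higher than the PFC in 11 of 11 and higher than the striatum in 12 of 12. Mean levels were 16.2 ± 4.19, 7.58 ± 2.66 and 5.16 ± 2.37 CPM. As a fold change the step from striatum to midbrain (2.14-fold) was larger than that from PFC to striatum (1.47-fold), unlike Lpl (1.81-fold and 2.98-fold). Gpnmb (ENSMUSG00000029816, chromosome 6, 49036546 to 49070929), a membrane glycoprotein of phagocytes, was near the floor outside the midbrain. It ran from 0 through 1.11 to 4.55 CPM in the midbrain and from 0 through 0.186 to 0.420 CPM in the striatum, and it was at 0 in 7 of 11 PFC samples, where the highest was 0.623 CPM. Mouse 5 had no count of Gpnmb in the midbrain, while mouse 2 had 207, so its presence in the midbrain differed between mice. Gpnmb was the only gene of the 10 whose mean was under 1 CPM in every group outside the midbrain.

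Lgals3 (ENSMUSG00000050335, chromosome 14, 47367751 to 47386160) encodes galectin-3, a lectin found in the cytosol, on damaged lysosomes and outside the cell. It had 9.82 to 23.8 CPM (median 13.8) in the midbrain, 4.62 to 10.3 CPM (median 6.93) in the striatum and 1.42 to 5.48 CPM (median 2.15) in the PFC. Although neighbouring regions overlapped at their edges, Lgals3 fell from midbrain to striatum to PFC within each of the 11 mice. Means were 14.9 ± 4.72, 6.94 ± 1.70 and 2.94 ± 1.45 CPM, and the steps were of like size, 2.14-fold from striatum to midbrain and 2.36-fold from PFC to striatum. Cst7 (ENSMUSG00000068129, chromosome 2, 150570415 to 150578944), the protease inhibitor cystatin F, is also counted among DAM genes but had means of 21.2 ± 5.05, 17.5 ± 2.29 and 19.1 ± 4.92 CPM. Its log2 difference between midbrain and PFC within mice was 0.10 ± 0.61 (SD, n = 11), with 7 mice higher and 4 lower.

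The order midbrain, striatum, PFC was met in at least 8 of 11 mice by 0.843% of all genes and, by choice, by 5 of these 10. The number of mice with the full order was 11 for Lgals3, 10 each for Spp1, Lpl and Clec7a, 9 for Itgax, 6 for Gpnmb, 5 each for Ch25h and Fabp5, 3 for Cst7 and 1 for Csf1. Mouse 7 had all 10 genes in the order, whereas mice 5 and 9 had 4 each. Lgals3 was ordered in 5 of 5 males and 6 of 6 females and Spp1 in 5 of 5 and 5 of 6.

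**Figure D2:**
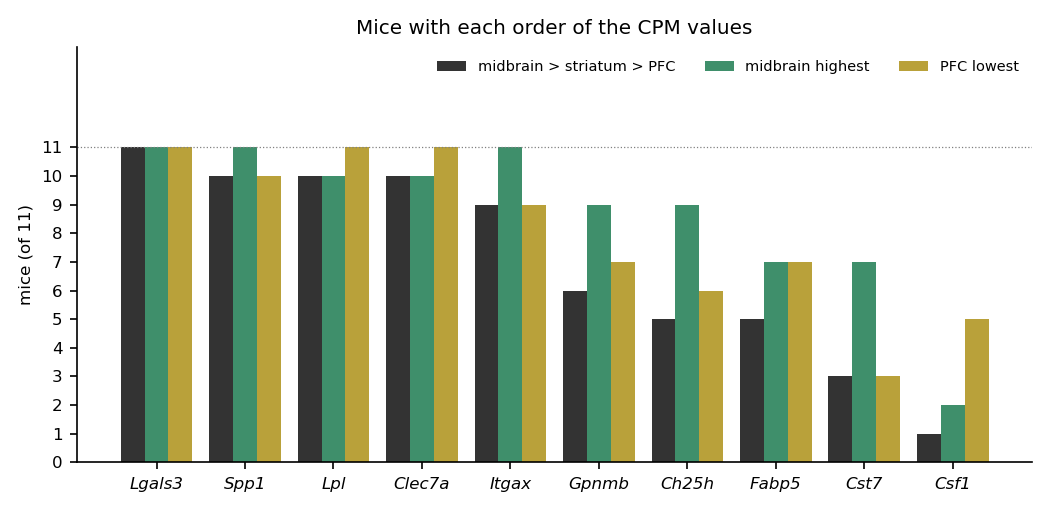
Number of mice, of 11 with all regions, in which CPM fell from midbrain to striatum to PFC (black), was highest in the midbrain (green) or lowest in the PFC (yellow), for each gene. Lgals3 reaches 11 in all counts, and Csf1 has 1, 2 and 5.

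Compared per kilobase of exon, the order of the genes themselves differed between regions. The length was the union of all annotated exons of a gene (10478 bases for Lpl, 1648 for Spp1). It can exceed the length of the transcripts expressed, so levels of different genes are compared only roughly. In the midbrain Spp1 was the highest at 37.8 ± 23.6 CPM per kb (SD, n = 12), followed by Cst7 (21.5 ± 5.12) and by Csf1 (11.02 ± 4.76), Clec7a (9.99 ± 3.09) and Lgals3 (7.99 ± 2.54). Itgax (3.38 ± 0.872), Lpl (2.75 ± 0.752), Ch25h (1.99 ± 1.31), Fabp5 (0.856 ± 0.285) and Gpnmb (0.234 ± 0.208) came next. In this order the gap between neighbours exceeded the larger of their SDs between Cst7 and Csf1, between Lgals3 and Itgax and between Fabp5 and Gpnmb, and not between the others. In the PFC the most abundant were Cst7 (19.3 ± 4.99 CPM per kb, n = 11) and Csf1 (10.5 ± 7.07), ahead of Spp1 (3.4 ± 2.2), and Gpnmb was again the lowest at 0.0155 ± 0.0293.

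Whether males and females differed was tested, since sex had no part in the choice of the genes. With edgeR, 0 of the 10 transcripts had a main effect of sex at an adjusted p under 0.05 (0.339% of all genes), and 1, Ch25h, passed at p under 0.05 before adjustment when the fold change also exceeded 1.2 (4.13% of all genes); DESeq2 likewise called 0 at an adjusted and 1 at an unadjusted p. Within regions 0 of 10 passed the adjusted threshold in the midbrain (0.0377% of all genes), striatum (0.033%) and PFC (0.0659%). By that looser threshold the counts were 0 in the midbrain (4.84% of all genes), 0 in the striatum (2.28%) and 1, again Ch25h, in the PFC (5.29%). The interaction of region and sex was called for 0 of 10 (0% of all genes by edgeR, although 632 genes had p under 0.05 before adjustment, none of the 10 among them).

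Ch25h had a log2 fold change of -0.92 (females over males, standard error 0.416, adjusted p = 0.56, edgeR's quasi-likelihood test). In the PFC the 5 males had 0.474 to 1.58 CPM and the 6 females 0 to 0.689 CPM, and in mice 2, 4 and 6 it was at most 0.0387 CPM, under the floor. The values overlapped. Over all PFC samples the log2 fold change by edgeR was -1.85 (adjusted p = 0.73), and the exact permutation test on log2 CPM gave p = 0.0368. Females averaged 0.0199 and males 1.40 CPM in the PFC of mice 1 to 6, against 0.570 and 0.842 CPM in mice 7 to 12. In the striatum females were also lower, with 0.485 against 0.853 CPM in mice 1 to 6 and 0.443 against 1.34 CPM in mice 7 to 12 (-1.24, standard error 0.682, exact permutation p = 0.0281). In the midbrain the log2 fold change was 0.16 (standard error 0.645), with females higher in mice 1 to 6 (4.53 against 3.21 CPM) and lower in mice 7 to 12 (1.29 against 2.01 CPM). Averaged over the regions of a mouse, log2 CPM of Ch25h relative to the regional means was -0.66 ± 0.90 (SD, n = 6) in females and 0.68 ± 0.32 (n = 6) in males (exact permutation test, two-sided, p = 0.0043). These averages include the PFC samples under the floor, with log2 CPM of -3.62, -4.56 and -3.98 in females 2, 4 and 6. How far the difference rests on those samples was not tested. With counts summed per mouse, the log2 fold change was smaller, -0.42 against -1.35 for these averages (females over males). Of 40 such exact tests on the 10 genes, 4 had p under 0.05, 3 of them for Ch25h and 1 for Fabp5 in the midbrain. That of Fabp5 compared 2.48 to 5.30 CPM in 6 females with 1.77 to 3.06 CPM in 6 males, and the groups overlapped (log2 fold change 0.67, exact permutation p = 0.0065, adjusted p = 0.92 by edgeR over all genes). Neither difference survived adjustment over all genes.

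**Figure D3:**
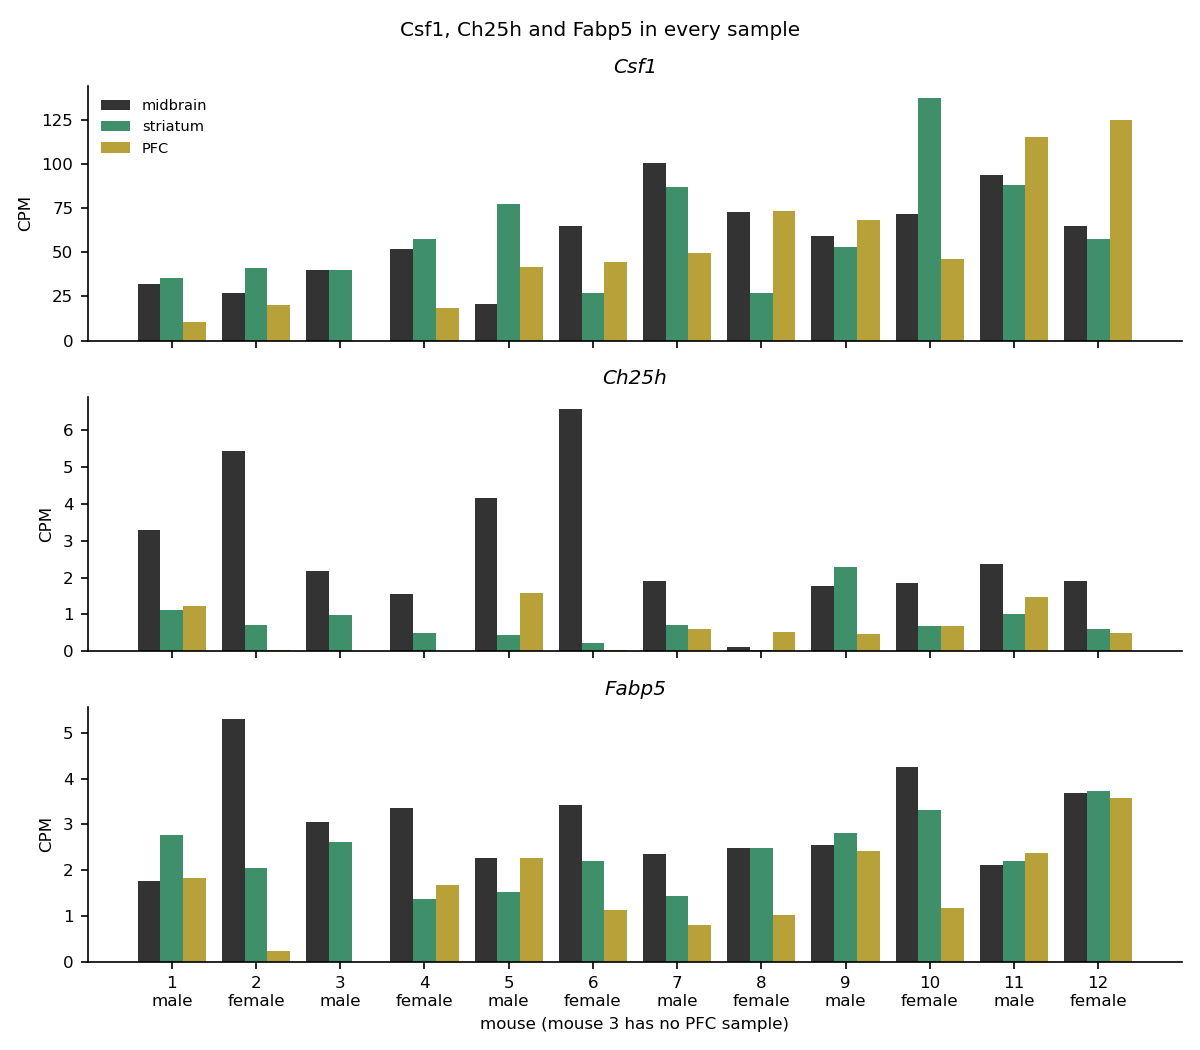
CPM of Csf1, Ch25h and Fabp5 in every sample, with mice on the horizontal axis and a bar for each region (mouse 3 has no PFC sample). Csf1 is lower in mice 1 to 6 than in most of mice 7 to 12, Ch25h has no visible bar in the PFC of females 2, 4 and 6, and the midbrain bars of Fabp5 reach from 1.77 to 5.30 CPM.

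Mice with much of a transcript in the midbrain did not have much of all others. Over the 12 midbrain samples, 39 of 45 pairs of the 10 genes had a positive Pearson's r of log2 CPM, with a median of 0.31 and a range from -0.42 to 0.88. A single pair, Spp1 and Lpl, had an adjusted p under 0.05 over the 45 relations computed (r = 0.88, permutation p = 4.2e-04, adjusted p = 0.0189, and Spearman's rho = 0.83, permutation p = 0.0013, adjusted p = 0.0549). Mice 7, 11, 6 and 2, with 93.9 to 142 CPM of Spp1, had 32.5 to 40.8 CPM of Lpl, while mice 3, 1, 4 and 12, with 17.3 to 31.5 CPM of Spp1, had 19.9 to 25.1 CPM. Without the 2 samples farthest from the median of Spp1, r was 0.93, without mouse 6 it was 0.86, and the separate groups of mice 1 to 6 and 7 to 12 gave 0.89 and 0.91. Its adjusted p rose to 0.0522 without mouse 1 or mouse 3 and to 0.0513 without mouse 4. In the striatum r was 0.35 (permutation p = 0.66 after adjustment, n = 12) and in the PFC 0.54 (permutation p = 0.44 after adjustment, n = 11), and whether these differ from the midbrain was not tested. Lpl and Lgals3 followed with r = 0.77 (permutation p = 0.00496, adjusted p = 0.0858). Clec7a, with as regular an order of regions as Lpl, had r = 0.39 with Lpl (permutation p = 0.213, adjusted p = 0.53), and within mice 1 to 6 and 7 to 12 the value was 0.63 and 0.81.

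**Figure D4:**
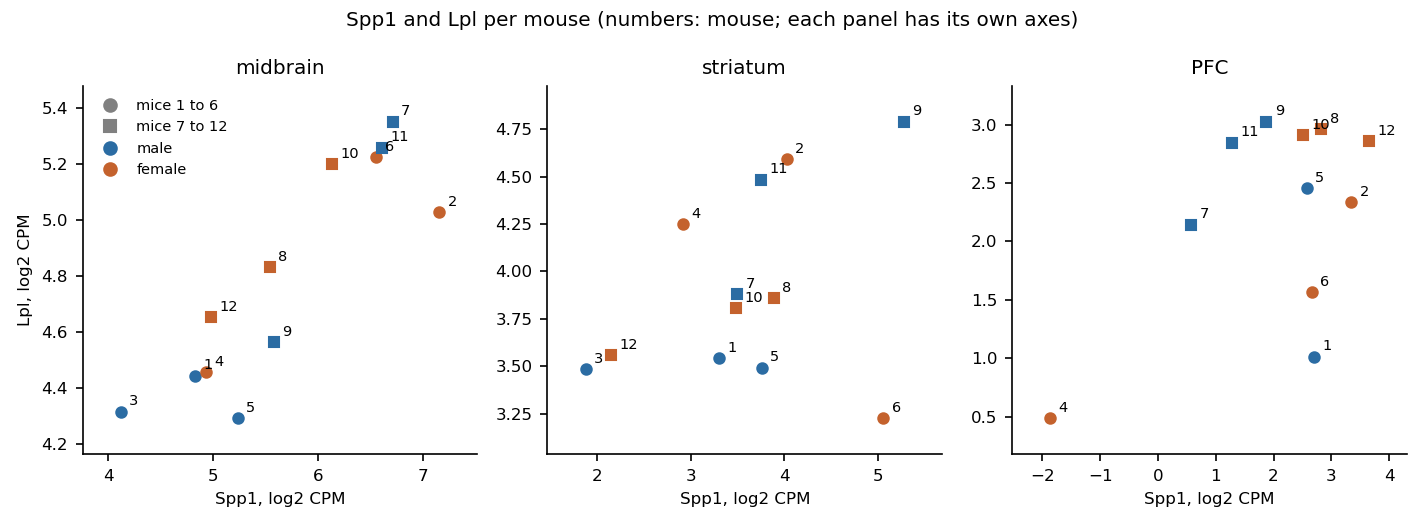
Log2 CPM of Spp1 (horizontal) and Lpl (vertical) in midbrain, striatum and PFC, each point a mouse with its number; circles are mice 1 to 6, squares mice 7 to 12, blue males and orange females. In the midbrain the points rise together (r = 0.88), and in the striatum mouse 6 lies far to the right at a low Lpl level.

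The other genes of the DAM program were taken from a list of 38, of which 36 were in the table. In this and the lists below a transcript was called higher or lower in a pair of regions with an adjusted p under 0.05 for the region effect (edgeR, over all genes) and, for the pair, p under 0.05 before adjustment and a fold change over 1.2. The lists were drawn up with earlier results of these data known, so their counts are descriptions. Of the 36, 34 averaged at least 1 CPM, against 12297 of all 21236 genes, so the shares over all genes are an unlike background. Of the 36, 15 were higher in the midbrain than the PFC and 0 lower (3.24% of all genes were higher and 2.75% lower). Between midbrain and striatum 12 were higher and 1 (Cd68) lower in the midbrain (2.98% of all genes higher and 3.5% lower), and between striatum and PFC 10 were higher in the striatum and 0 lower (2.31% and 0.833%). When the pair also needed an adjusted p under 0.05, these counts were 15 and 0, 11 and 1, and 2 and 0; the gene lost between midbrain and striatum was Mmp12 (adjusted p = 0.25), which was not called there with the mouse as a block, with DESeq2 or without the midbrain sample of mouse 6 either. The median log2 fold change of the list was 0.28 between midbrain and PFC and 0.17 between midbrain and striatum, beside -0.011 and -0.012 over all genes. Cd74, the MHC class II chaperone, measured 283 ± 418 CPM (SD) in 12 midbrain and 39.97 ± 16.6 CPM in 11 PFC samples (log2 fold change 2.83, standard error 0.490, adjusted p = 1.7e-04). The midbrain sample of mouse 6 alone held 1498 CPM of Cd74, and without it the midbrain mean was 173 ± 177 CPM (n = 11) and the log2 fold change 2.0 (adjusted p = 1.7e-04), while with the mouse as a block it was 2.13. Axl, a receptor tyrosine kinase that binds GAS6 on dying cells, measured 54.7 ± 21.1, 19.995 ± 10.3 and 10.7 ± 5.27 CPM in midbrain, striatum and PFC. Cox6a2, a subunit of cytochrome c oxidase, had 10.9 ± 2.21, 3.68 ± 1.41 and 2.17 ± 0.956 CPM, with a midbrain range of 8.12 to 14.9 that lay above those of the other regions. Fam20c, the kinase of secreted proteins that phosphorylates osteopontin, had 13.9 ± 3.19, 8.98 ± 2.07 and 5.32 ± 2.18 CPM (midbrain against PFC, log2 fold change 1.38, adjusted p = 2.5e-06). The receptor side differed: Trem2 (log2 fold change 0.064, adjusted p = 0.71) and Tyrobp (0.069, adjusted p = 0.84) did not pass between midbrain and PFC. Apoe, the lipid carrier, had 641 ± 551, 539 ± 226 and 283 ± 152 CPM in midbrain, striatum and PFC and a log2 fold change of 1.15 between midbrain and PFC (standard error 0.357, adjusted p for the pair 0.0445), but its region effect missed the threshold (adjusted p = 0.0765) and so it was not called. Without the midbrain sample of mouse 6, which held 2257 CPM, the fold change of Apoe was 0.80 (adjusted p = 0.14). Cd68, Mmp12, Trem2, Tyrobp and Apoe were named after their values were seen.

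**Figure D5:**
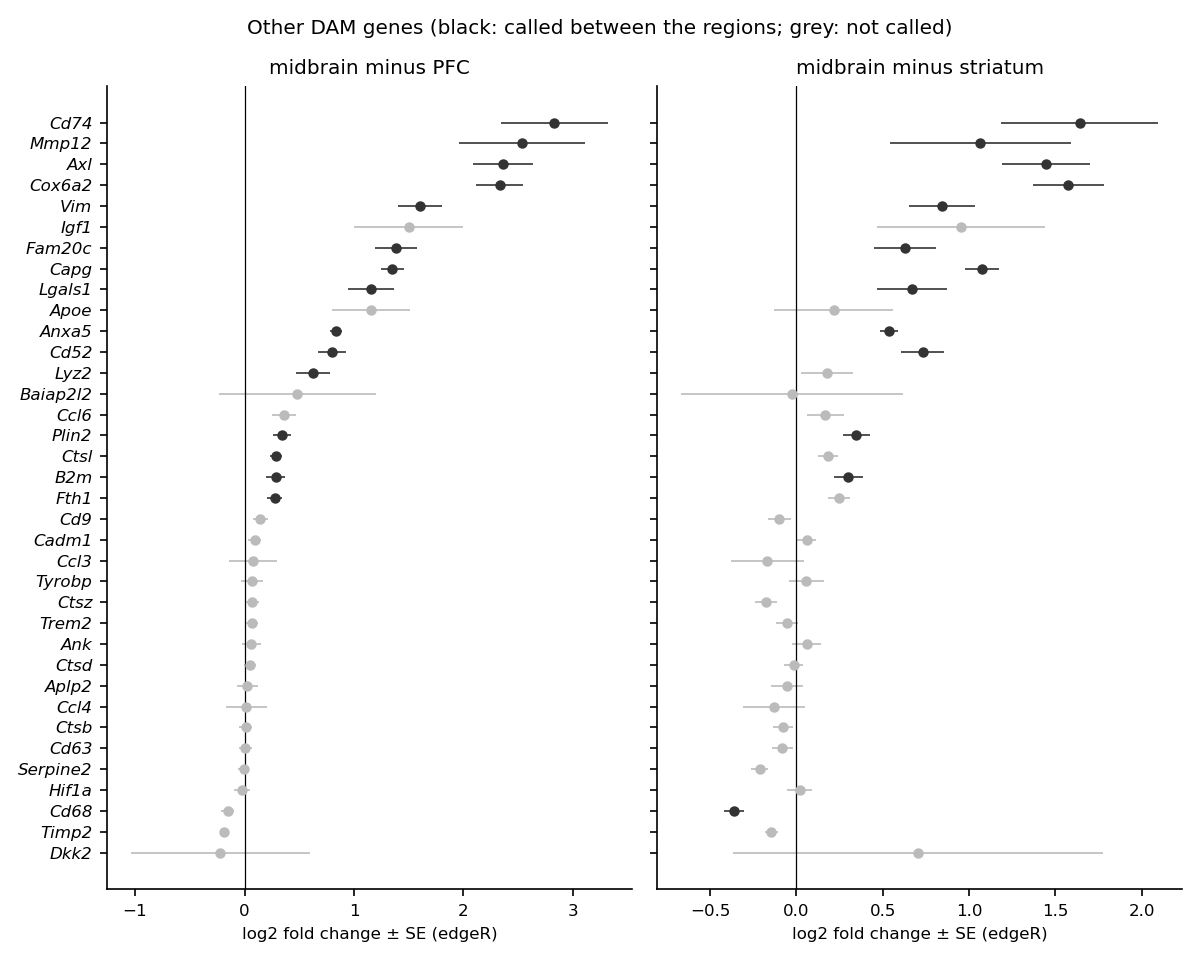
Log2 fold change ± standard error (edgeR) of the 36 other DAM genes between midbrain and PFC (left) and between midbrain and striatum (right); black points were called and grey points were not. Cd74, Axl and Cox6a2 lie far to the right in both panels, and Trem2 and Tyrobp lie near 0.

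Of 37 transcripts whose products bind, process or respond to the 10, 7 were higher and 3 lower in the midbrain than the PFC, and 6 were higher and 3 lower than in the striatum, against the shares of all genes given above (3.24% and 2.75%, then 2.98% and 3.5%). Csf2ra, a receptor chain for GM-CSF, had 48.6 ± 10.1, 38.1 ± 7.39 and 26.9 ± 6.07 CPM in midbrain, striatum and PFC (midbrain against PFC, log2 fold change 0.85, adjusted p = 7.1e-06). Ctsc, the protease cathepsin C, which cystatin F inhibits, had 1363 ± 170, 1015 ± 86.4 and 905 ± 76.4 CPM (0.59, adjusted p = 1.1e-08), beside the Cst7 levels above. Lrp1, an uptake receptor that carries Lpl-bound lipoproteins, was lower in the midbrain than the striatum (132 ± 28.7 against 279 ± 63.3 CPM, log2 fold change -1.09, adjusted p = 1.2e-06), opposite in direction to Lpl. Rxra, a nuclear receptor that pairs with the oxysterol receptors, was lower in the midbrain than the PFC (-0.42, adjusted p = 0.0052). Csf1r, the receptor of Csf1, was lower in the midbrain than the striatum (-0.32, adjusted p = 0.0125). Among the receptors of osteopontin, Cd44 had 3.22 ± 1.31, 0.989 ± 0.478 and 0.606 ± 0.408 CPM in midbrain, striatum and PFC and was higher in the midbrain than in both, and the integrin chain Itgb3 was higher in the midbrain than the PFC (log2 fold change 0.40, adjusted p = 0.0093). The other integrin chains listed for it, Itgav, Itgb1, Itgb5, Itga4 and Itga9, were called in neither pair. Itgb2, the beta chain that pairs with CD11c, was higher in the midbrain than the PFC (0.30, adjusted p = 3.0e-04) and the striatum (0.36, adjusted p = 2.8e-05). Cd44, Itgb2 and the chains that bind osteopontin were named after their values were seen.

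Of 23 transcriptional regulators, 1 was higher and 1 lower in the midbrain than the PFC, and 1 was higher and 1 lower than in the striatum, shares close to those of all genes. Maf, a factor of the homeostatic state, had 150 ± 14.7 CPM in the midbrain and 192 ± 44.5 in the PFC (log2 fold change -0.36, adjusted p = 0.0224), but its region effect was not called with DESeq2 size factors, with the filterByExpr filter, without the midbrain sample of mouse 6, or without mouse 1, 2, 4, 5, 7, 9, 10 or 12. Rbpj, the effector of Notch signalling, was higher in the midbrain than the striatum (0.36, adjusted p = 2.3e-04), and Sall1, which keeps microglial identity, was lower (-0.29, adjusted p = 0.0061). Mitf, whose product binds the letters missing from the promoters above, had a log2 fold change of 0.063 between midbrain and PFC (adjusted p = 0.82) and was named after its value was seen.

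Of 14 homeostatic transcripts in the list, 2 were lower in the midbrain than the PFC, 4 were lower than in the striatum and 0 were higher in either pair. Of all genes, 2.75% were lower and 3.24% higher than in the PFC, and 3.5% lower and 2.98% higher than in the striatum. All 14 averaged at least 1 CPM, so these shares are an unlike background. Fcrls, an Fc receptor-like molecule, had 2864 ± 277, 3708 ± 451 and 4454 ± 350 CPM in midbrain, striatum and PFC (midbrain against PFC, -0.63, adjusted p = 5.4e-10), and Siglech was lower in the midbrain than the striatum (-0.31, adjusted p = 8.5e-05).

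Some markers of other cells and states moved with the regions as well, and their part in the levels of the 10 genes was not tested. Their counts stand beside 3.24% of all genes higher and 2.75% lower in the midbrain than the PFC. Against the striatum, the shares of all genes were 2.98% and 3.5%. Levels differed between the lists: 10 of 10 astrocyte, 4 of 12 neuronal and 4 of 11 border macrophage markers averaged at least 1 CPM. MHC class II transcripts were higher in the midbrain than the PFC in 5 of 7 cases, led by H2-Eb1 (53.6 ± 108 against 2.69 ± 1.90 CPM), H2-Aa (80.3 ± 162 against 4.55 ± 3.98 CPM) and H2-Ab1 (200.1 ± 325 against 24.1 ± 8.32 CPM), with large SDs in the midbrain, where the summed level was 679 to 2019 CPM in 11 samples and 4278 CPM in mouse 6. Without that sample the midbrain means were 23.1 CPM for H2-Eb1, 34.6 CPM for H2-Aa and 110 CPM for H2-Ab1, and all 3 were still called. Of 12 cell division transcripts, 10 were higher in the midbrain than the PFC and 8 higher than in the striatum, with sums of 17.2 to 53.8 CPM in the midbrain and 5.86 to 17.7 CPM in the PFC. For border macrophages 2 of 11 were higher and 1 lower in the midbrain than the PFC, and Stab1 was lower in the midbrain than the striatum (-0.57, adjusted p = 1.3e-04). For monocytes and neutrophils 1 of 8 was higher and 2 lower than in the PFC, and for dendritic cells and lymphocytes 1 of 9 was higher and 0 lower. Clec12a among the border macrophage markers and Ly6c2 among those of monocytes lost these calls without the midbrain sample of mouse 6. Clec12a and Ly6c2 were named after their values were seen. Neuronal transcripts were lower in the midbrain than the PFC in 6 of 12 cases and astrocyte transcripts in 4 of 10, Slc1a2 (-1.67), Aldoc (-0.75, not called without the midbrain sample of mouse 6) and Slc1a3 (-0.46) among them. Among oligodendrocyte transcripts 1 of 12, Mbp, was higher than in the PFC (0.67, adjusted p = 0.0222), and 0 of 9 endothelial and 0 of 12 immediate early and dissociation transcripts were called (the last list summed to 23159 to 43005 CPM in the midbrain and 23851 to 42267 in the PFC). Against the striatum, 6 of 12 neuronal, 4 of 10 astrocyte and 2 of 12 oligodendrocyte transcripts were lower in the midbrain and 0 higher. Between striatum and PFC, 3 oligodendrocyte transcripts were higher in the striatum, and 0 when the pair also needed an adjusted p under 0.05. The median oligodendrocyte sums were 416, 470 and 299 CPM in midbrain, striatum and PFC. With the midbrain sample of mouse 6 left out, the mean in the midbrain was 5.25-fold that of the PFC for Lpl, 4.79-fold for Clec7a, 4.78-fold for Lgals3 and 3.05-fold for Itgax. With the striatum sample of mouse 9 left out, the mean in the striatum was 2.78-fold, 2.17-fold, 2.26-fold and 1.40-fold that of the PFC for the same genes.

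Transcripts like the 10 genes over all 35 samples were looked for among 9534 genes with a mean of at least 5 CPM, by Pearson's r with the mean of the standardised log2 CPM of the 10, given as a description since the samples share regions and mice. Among the most alike were Fxyd5 (r = 0.89), Axl (0.88), Emp3 (0.87), Hcar2 (0.87), Cybb (0.86), Lsp1 (0.86) and Anxa5 (0.86). Fxyd5, a small membrane glycoprotein, fell from 20.7 to 6.67 to 2.64 CPM in mean and had the full order in 11 of 11 mice, as did Emp3 and Anxa5. Axl and Lsp1 had the full order in 10 mice each, and Hcar2 and Cybb in 8 each. Since the 10 genes were chosen by their levels by region, likeness to them favours this order. Cybb encodes the catalytic chain of the phagocyte NADPH oxidase and Hcar2 a receptor of ketone bodies and niacin. With the mean of each region and sex removed, the most alike included Apoe (0.70), Ccdc9 (0.67), Polrmt (0.64), Med12 (0.64), Cd74 (0.63), Abcd4 (0.63) and Gstm1 (0.63), and Polrmt, a transcript of mitochondrial transcription, had the order in 0 of 11 mice. By the same measure Clec7a was most like Cd74 (0.72), H2-Eb1 (0.71) and Enpp2 (0.65), Lpl most like Rfc1 (0.74) and Srpk1 (0.74), and Spp1 most like Spout1 (0.63), Tbc1d19 (0.62) and Slc16a6 (0.61). Of the 10, Clec7a (0.93) and Lgals3 (0.91) followed the common mean most closely and Csf1 (0.41) and Cst7 (0.46) least, a mean of which each is itself a part.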

How the data were processed

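Per the labels and the methods, tdTomato-positive microglia were sorted from 3 regions of 12 mice, and RNA was amplified with Smart-Seq HT and prepared with Nextera XT, which do not mark strand. The authors trimmed reads (Trimmomatic), aligned them to GRCm38 (HISAT2) and deposited raw counts per Ensembl gene after a filter on low expression, without normalization. The counting tool, annotation release and handling of multiple matches are not given in the sources used here. Of 21236 genes, 12857 reach a mean of 1 CPM in a group, and all 10 members do.

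Counts were fitted over all genes with edgeR 4.0.16 in R 4.3.3 (TMM, robust quasi-likelihood F-test, Benjamini-Hochberg adjustment): region and sex as additive terms, and 6 group means for sex within a region and the interaction. Log2 CPM used a prior count of 2. Samples of 1 mouse share an animal, which pairs them: after group means were removed their log2 CPM correlated at a mean r of 0.22 (34 pairs), against -0.094 for 255 pairs of different mice. Per-mouse sex differences had exact permutation tests, and the 45 correlations 100000 permutations. The fits were tested on simulated data. The members and lists were chosen with earlier results of these data known. Named genes were the 10 members, at most 4 called genes per list by fold change with at least 5 CPM on average, the most alike transcripts, of which 1 is not reported here, and others said to be chosen after their values were seen. One column named as PFC of mouse 3 carries the library number of a sample labelled striatum and was used as striatum; its Lpl (11.2 CPM) and Clec7a (12.6 CPM) lay above every PFC sample and its Spp1 (3.62 CPM) below every other striatum sample. Symbols came from GENCODE M21 (133 genes had none), promoters from RefSeq, and copies were sought with blastn 2.17.0 (at least 100 bases at 95% identity). Alternatives used DESeq2 1.42.0, limma 3.58.1 (voom), other scalings and filters, the mouse as a block, each mouse left out, and, added after the data were seen, the fits without the striatum sample of mouse 3 or the midbrain sample of mouse 6 and other minimum numbers of mice for the order. Intervals between libraries cover these mice only, and the libraries carry no molecular identifiers, so the floor of 3 counts covers counting error only.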

Additional observations from a re-analysis of the deposited data

Results flagged for a closer look

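Within each of the 6 groups of region and sex, a sample was singled out where its gap to the nearest other took up more of the group's range than Dixon's 95% limit allows. Of 60 groups tested, 10 held such a sample, 9 of them high. The limit was made for normally distributed values but was applied to CPM, and different genes share samples. The count is therefore a description, without a rate to set it against. The male striatum of mouse 9 accounted for 4: Spp1 at 38.8 CPM (others 3.62 to 13.5), Clec7a at 22.6 CPM (others 8.72 to 13.7), Lgals3 at 10.3 CPM (others 5.35 to 7.19) and Ch25h at 2.29 CPM (others 0.446 to 1.12). The same sample had the highest oligodendrocyte and MHC class II sums of the striatum (899 and 837 CPM), and their part in these values was not tested.

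Clec7a reached 47.3 CPM in the female midbrain of mouse 6 (others 18.1 to 26.2), the sample with the highest MHC class II sum. Lgals3 reached 22.7 CPM in the male midbrain of mouse 11 (others 9.82 to 14.4). Cst7 was low, at 11.5 CPM, in the female midbrain of mouse 8 (others 21.7 to 24.02). Csf1 reached 137 CPM in the female striatum of mouse 10 (others 26.9 to 57.4). Gpnmb reached 0.214 CPM in the male PFC of mouse 11 (others at 0) and 0.623 CPM in the female PFC of mouse 8 (others 0 to 0.188).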

How the results depend on the processing

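No member was called for sex, for sex within a region or for the interaction at an adjusted p under 0.05 with DESeq2, DESeq2 size factors, filterByExpr, any mouse left out, or either doubtful sample removed; the main effect of sex also had 0 calls with limma-voom and with counts summed per mouse. With p under 0.05 before adjustment and a fold change over 1.2, 1 was called for sex and 1 for sex within a region. With the mouse as a replicate block, the interaction was called for 0 members and 33 listed genes differed between regions, against 32 without the block, and the block ended the call of Mmp12 between midbrain and striatum, the only midbrain call it changed among the other DAM genes, partners and regulators named in the text. The number of correlated pairs in the midbrain was 1, and it was 0 with Spearman's rho, 1 with the mean of each sex removed and 0 to 4 with a mouse left out. It was 0 in striatum samples and 1 in PFC samples, where the pair was not Spp1 and Lpl. The cause was not tested. The number of listed genes called between regions was 26 to 32 with a mouse left out. The 5 members in order in at least 8 of 11 mice numbered 5 under each scaling and with each mouse left out. All 600 alternative values of the members' log2 level ratios between regions moved by less than the SD between mice. That limit is wide (2.56 for Ch25h, midbrain over PFC) and hard to pass by leaving a mouse out, so stable ratios cannot be concluded. For this ratio mice 7 to 12 averaged 0.92, against 4.16 for mice 1 to 6, whereas Spp1 had 3.80 against 3.85. Striatum over PFC changed sign between these groups for Ch25h (-0.09 against 1.44) and Csf1 (-0.16 against 0.92). Depth limits Gpnmb and Ch25h, which had 7 and 3 PFC samples under the floor.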
